A study of Mus musculus with 30 samples.

Results

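The transcripts described here are 10 genes that mark macrophages and other myeloid cells: Lilrb4a, Lyz2, Cd68, Csf1r, Ptprc, Cx3cr1, Aif1, Cd14, Tyrobp and Fcer1g. They were chosen from the 23986 gene symbols on the arrays because Lilrb4a and Lyz2 had been seen to be high in embryonic stem cell (ESC) cultures, so every value in the ESC cultures below is a description and carries no test. All 10 were measured on all 30 arrays. The study took mouse ESCs through mesoderm, intermediate mesoderm and renal progenitors to kidney organoids, and set these beside native kidneys, with 3 arrays in each of 10 groups. The cells came from mouse ESC line 1B10, which was grown on mitomycin C-treated mouse embryonic fibroblasts, a feeder layer that supplies support but does not divide. Mesoderm, intermediate mesoderm and renal progenitor cells were differentiated as a monolayer on gelatin-coated plates, whereas the feeder layer is described for maintaining the ESCs. The organoids were aggregates of cells from this differentiation, kept at an air–liquid interface and named by their days of culture, 8D, 14D and 21D. Native kidneys were dissected at the embryonic stages E12.5 and E13.5 (days after conception) and from adult mice, and were flash frozen. No group used here carried a transgene, and the strain, sex and exact age of the kidney donors were not given in the sources used here. Nothing states that the 3 arrays of a group came from separate cultures or animals, so p-values measure only the spread between these samples.

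Macrophages are phagocytes that arise first in the yolk sac and enter the embryonic kidney with the developing vessels, and in the adult kidney they form a network around the tubules. Their survival depends on Csf1r, the receptor for the growth factors Csf1 and Il34. Many of their surface receptors have no signalling tail of their own and signal through the small adaptors Tyrobp and Fcer1g, which recruit the kinase Syk, whereas Lilrb4a carries inhibitory motifs that recruit phosphatases such as Ptpn6 and Inpp5d. Lysozyme, encoded by Lyz2, breaks bacterial cell walls, Cd68 is a heavily glycosylated protein of lysosomes, Cd14 passes bacterial lipopolysaccharide to Tlr4, and Cx3cr1 is the receptor for the chemokine Cx3cl1. Ptprc, known as the leukocyte common antigen, is a tyrosine phosphatase on nearly all white blood cells, and Aif1 is an actin-bundling protein of macrophages and microglia.

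Upstream sequences are shown for Lyz2 and Ptprc because they were the only members with a RefSeq entry (build GRCm38.p6) whose 250 bases before the annotated start held GGAAGT or its reverse complement ACTTCC, a core hexamer bound by ETS-family factors that include the myeloid regulator Spi1. Lyz1, the neighbouring lysozyme gene that is known for expression in the intestine, is shown because its array values differed from those of Lyz2. Each run reads 5′ to 3′ on the gene's own strand and ends at the base before the start, with the hexamer in capitals.
Lyz2, chr10:117282273-117282522, minus strand: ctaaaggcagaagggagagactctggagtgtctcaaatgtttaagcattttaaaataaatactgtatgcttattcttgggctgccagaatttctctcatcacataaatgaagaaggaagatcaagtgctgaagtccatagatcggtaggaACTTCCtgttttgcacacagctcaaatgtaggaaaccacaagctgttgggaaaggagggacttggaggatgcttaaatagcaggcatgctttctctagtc
Lyz1, chr10:117292869-117293118, minus strand: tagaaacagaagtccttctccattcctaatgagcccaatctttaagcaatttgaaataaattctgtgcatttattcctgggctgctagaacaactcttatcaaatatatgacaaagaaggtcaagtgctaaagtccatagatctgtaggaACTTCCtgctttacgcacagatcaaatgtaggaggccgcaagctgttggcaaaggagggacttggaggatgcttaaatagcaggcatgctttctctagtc
Ptprc, chr1:138175306-138175555, minus strand: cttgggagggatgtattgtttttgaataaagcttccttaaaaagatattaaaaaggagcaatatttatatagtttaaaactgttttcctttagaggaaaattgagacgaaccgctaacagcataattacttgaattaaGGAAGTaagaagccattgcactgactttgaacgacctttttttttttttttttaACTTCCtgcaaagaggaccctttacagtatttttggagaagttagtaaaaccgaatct
The hexamer was searched on both strands and was present in 20.0% of the 27025 genes with a window of this length, so its presence in 2 of the 6 members searched is a description of these windows only. In Lyz2 and in Lyz1 its first base lay at position -100, counted back from the start. An alignment of the Lyz2 and Lyz1 windows had 252 columns, of which 200 were identical, and 92 of the 100 bases nearest the start matched. No hexamer was found in the windows of Cd68, Cx3cr1, Aif1 and Fcer1g, which says only that these letters are not there. Lilrb4a, Tyrobp, Csf1r and Cd14 were not searched and are named only.

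All values are log2 RMA signals, so a difference of 1 is a doubling of signal, and array medians lay between 5.76 and 5.94. Dim signal was judged from 1399 receptor genes of smell and pheromone sensing (olfactory and vomeronasal), silent in most tissues, with a 95th percentile between 4.99 and 5.64 on the arrays. Cd68 and Cx3cr1 were above that gauge on 30 of 30 arrays, Csf1r and Fcer1g on 27, Tyrobp on 24, Lilrb4a on 20, Lyz2 on 18, Cd14 on 12, Ptprc on 5 and Aif1 on 1, so the Ptprc and Aif1 values are dim nearly throughout. The labels carry 2 batches: batch 1 holds replicate 1 of ESC, mesoderm, intermediate mesoderm, renal progenitors and E13.5 kidneys, and batch 2 holds the other 25 arrays. The adult kidneys carried proximal tubule markers as labelled (list mean 12.20 to 12.55, against 4.91 to 6.14 in mesoderm, intermediate mesoderm, renal progenitors and embryonic kidneys). The nephron progenitor marker Six2 had a mean of 5.25 in the renal progenitors against 10.04 in E12.5 kidneys. The study identified the progenitors by Six2, Wt1 and Pax2 protein staining in part of the cells, a measure unlike RNA of a whole culture. The pluripotency gene Nanog had a mean of 10.55 in 8D and 9.23 in 21D organoids, so the organoid samples still carried Nanog signal.

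In ESC cultures the highest members relative to mesoderm were the inhibitory receptor Lilrb4a, lysozyme, the lysosomal protein Cd68 and the adaptor Fcer1g, while Csf1r and Ptprc, which most macrophages carry, were raised by much less. Lilrb4a was 8.35, 9.74 and 9.60 on the ESC arrays and 4.34, 3.80 and 4.68 on the mesoderm arrays. Lyz2 was 7.89, 8.98 and 7.92 against 4.47, 5.01 and 5.18. For both genes even the lowest ESC array stood far above the highest mesoderm array. Cd68 read 9.99, 9.78 and 9.25 in ESC cultures and 7.79, 7.69 and 7.90 in mesoderm. Fcer1g read 7.05, 7.49 and 6.52 against 5.61, 5.19 and 5.55. For Lyz2 and Cd68, each ESC array was above each array of all 9 other groups. For Lilrb4a the ESC arrays overlapped those of the 14D and 21D organoids.

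The mean differences between ESC cultures and mesoderm were 4.96 for Lilrb4a (9.23 ± 0.77 against 4.27 ± 0.44, SD, n = 3 each, a 31.0-fold signal ratio), 3.37 for Lyz2, 1.88 for Cd68 and 1.58 for Fcer1g. All mesoderm values of Lilrb4a lay below 4.99, the lowest point of the background gauge, so its fold ratio is taken over dim signal. Cd14, the lipopolysaccharide co-receptor, differed by 0.92 and spread widely in ESC cultures, at 5.0, 6.55 and 5.75. Ptprc differed by 0.69 and Csf1r by 0.39, with ESC arrays at 4.27, 4.12 and 4.38 for Ptprc and 5.67, 5.83 and 5.49 for Csf1r. The mean differences of Tyrobp, Cx3cr1 and Aif1 were 0.22, -0.01 and -0.10, the smallest of the 10. The ESC and mesoderm arrays did not overlap for 7 of the 10 members, with the ESC side higher, and 13.8% of all genes showed the same separation. Because this contrast chose the members, nothing is read from that count.

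**Figure D1:**
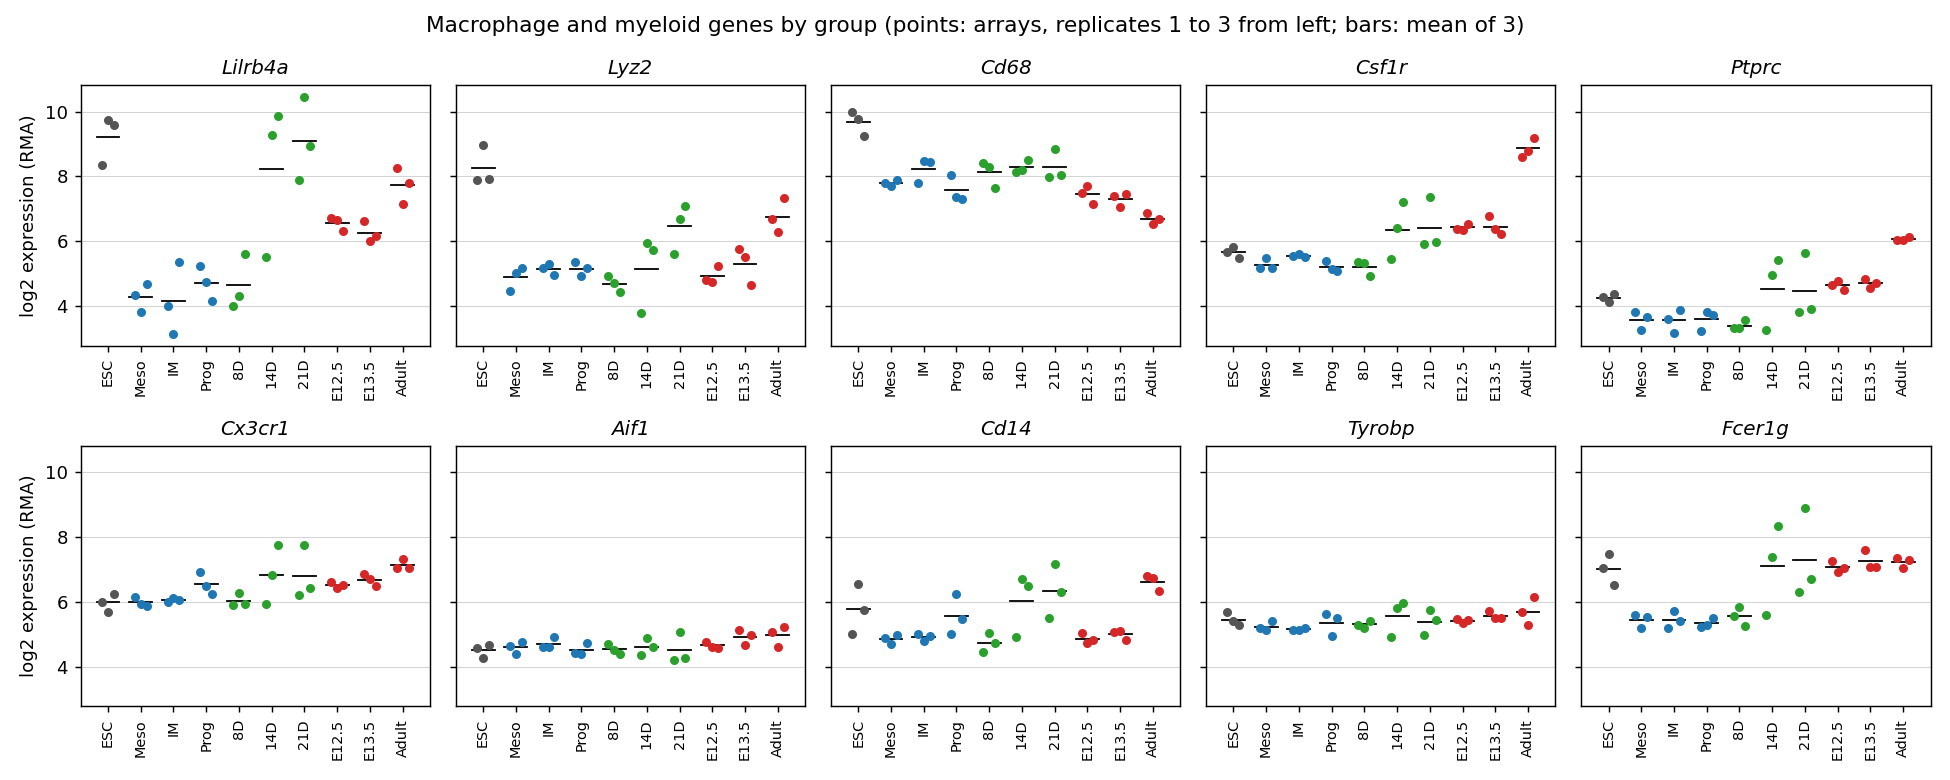
Log2 RMA signal of each of the 10 myeloid genes (one panel per gene, y axis) in the 10 groups (x axis), with a point for each array (ESC grey, other flat cultures blue, organoids green, kidneys red) and a bar for the group mean. Lilrb4a is high in ESC cultures (8.35 to 9.74), low from mesoderm to 8D organoids and high again in the later organoids, whereas Csf1r and Ptprc are highest in adult kidneys and Aif1 is nearly flat.

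Genes that work with the members showed where else the ESC cultures stood above mesoderm. These lists hold 98 measured genes by role, of which 42 had every ESC array above every mesoderm array, beside 13.8% of all genes. Their median difference was 0.31, against -0.01 over all genes. The ESC level chose the members, and the lists were made with earlier results of these data known. These counts, and those of the lists of other cells below, are therefore descriptions from which nothing is read. Among lysosome and degradation genes the separation held for 9 of 11, led by the cysteine protease Ctss with a difference of 2.00 and the pore-forming protein Mpeg1 with 1.80. Among macrophage surface genes it held for 8 of 18, including the inhibitory Fc receptor Fcgr2b (2.53), the scavenger receptor Msr1 (1.93), the mannose receptor Mrc1 (1.60) and Adgre1 (1.17), a widely used macrophage surface marker. The complement subunit C1qb was 7.54, 8.32 and 6.90 in ESC cultures against 5.63, 4.97 and 5.68 in mesoderm. The phagocyte oxidase list separated for 5 of 6 genes, and its catalytic subunit Cybb differed by 1.45. Among the lineage transcription factors 1 of 10 separated, near the 13.8% of all genes. That gene was Spi1, the ETS factor that directs macrophage development, at 6.58, 6.41 and 6.03 against 5.61, 5.56 and 5.64.

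Markers of other cells the ESC cultures could hold were read beside these. Of the neutrophil list, 1 of 11 genes separated, near the 13.8% of all genes, with a median difference of -0.05. The neutrophil protein S100a8 had means of 2.96 and 2.94 in the ESC and mesoderm groups. The megakaryocyte list separated for 2 of 6 with a median of 0.49, higher than that of the macrophage surface list (0.22), led among the separated genes by the platelet chemokine Pf4 (1.09), and its mean was 5.40 to 5.86 in ESC cultures against 5.01 to 5.17 in mesoderm. Its part in the member values was not tested. The mast cell list separated for 0 of 7, the red cell list for 0 of 8, the T cell list for 2 of 10 and the B cell list for 2 of 7. The T cell list mean was 5.25 to 5.41 in ESC cultures against 4.96 to 5.13 in mesoderm. Fibroblast markers, which the feeder layer would carry, separated for 7 of 10 with a median of 1.96, led by Mmp3 at 3.49, and the list mean was 7.52 to 8.32 in ESC cultures against 5.99 to 6.56 in mesoderm. The same fibroblast list stood at 8.75 to 9.44 in renal progenitors. The mean over the 10 members was 5.29 to 5.44 there, against 6.45 to 6.78 in ESC cultures. The part of feeder fibroblasts in the member values was not tested. In whole cultures, organoids and organs, fewer cells of a type and less RNA per cell cannot be told apart.

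**Figure D2:**
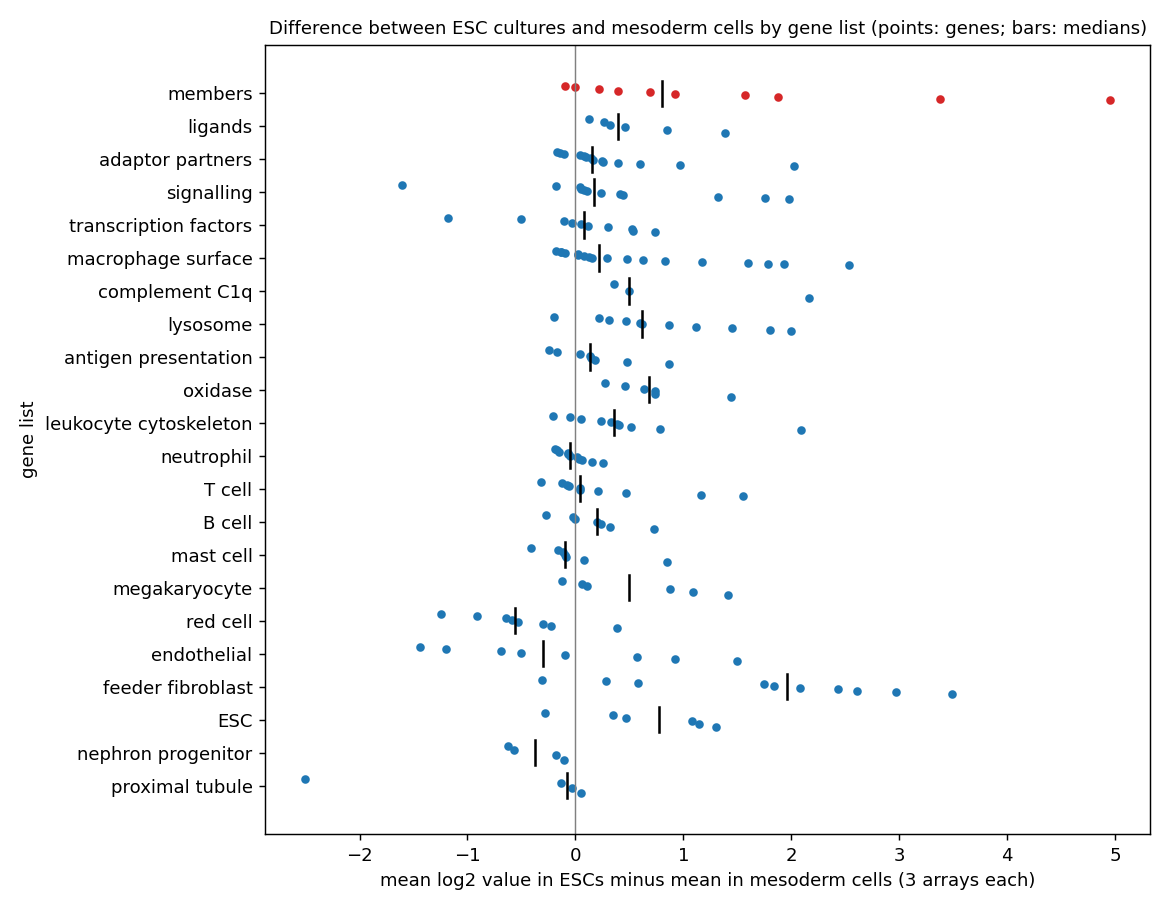
ESC minus mesoderm difference in log2 RMA signal (x axis, difference of group means) for the genes of each list (y axis), with a point per gene and a bar for the list's median. The lysosome, phagocyte oxidase and fibroblast genes lie mostly to the right of 0 (medians 0.62, 0.68 and 1.96) and the neutrophil genes around 0 (median -0.05).

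Between mesoderm, intermediate mesoderm, renal progenitors and 8D organoids the members stayed low and none passed the test in any of the 3 successive steps. The test was limma's moderated test over all 23986 genes with a batch term, and a call was an adjusted p under 0.05 (Benjamini-Hochberg). In intermediate mesoderm against mesoderm 0 of 10 members were called, with 7.05% of all genes called (3.15% higher and 3.90% lower). In renal progenitors against intermediate mesoderm 0 were called against 26.5% of all genes (10.7% higher and 15.9% lower), the nearest being Cd68 at a limma adjusted p of 0.0521. In 8D organoids against renal progenitors 0 were called against 19.4% (11.7% higher and 7.69% lower), the nearest being Cd14 at 0.109. At an unadjusted p under 0.05 the counts were 0, 1 and 2 members. The Cd68 arrays ran 7.79, 8.49 and 8.45 in intermediate mesoderm, 8.03, 7.36 and 7.31 in progenitors, and 8.42, 8.31 and 7.65 in 8D organoids. Cd68 thus stayed well above the background gauge while Lilrb4a, at 5.23, 4.74 and 4.16 in progenitors, lay within the gauge's range or below it.

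Of 6 listed genes for ligands and for lipopolysaccharide sensing, 0 were called in intermediate mesoderm against mesoderm, beside 7.05% of all genes. In progenitors 4 of the 6 were higher than in intermediate mesoderm, and in 8D organoids 3 were lower than in progenitors. Csf1, the growth factor read by Csf1r, had group means of 8.49 in mesoderm, 8.94 in intermediate mesoderm, 9.45 in renal progenitors and 7.50 in 8D organoids, and the last step was a fall of 2.03 (limma adjusted p = 3.41e-06). Ly96, the partner of Tlr4 in lipopolysaccharide sensing, rose by 1.86 from intermediate mesoderm to progenitors and fell by 2.53 from progenitors to 8D organoids. Over the 98 role-list genes, 14 were higher and 7 lower in progenitors than in intermediate mesoderm, and 6 were higher and 11 lower in 8D organoids than in progenitors. Shares over all genes were 10.7% higher and 15.9% lower in progenitors against intermediate mesoderm, and 11.7% and 7.69% in 8D organoids against progenitors. With the compared groups fitted alone, 9 in place of 21 and 5 in place of 17 genes were called. The transcription factors Maf (3.10) and Cebpa (2.37) were among the higher genes at the progenitor step, and in 8D organoids Maf fell by 2.29 and Cebpa fell by 1.78. Both are used outside the myeloid lineage as well.

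In 21D organoids 5 members were higher than in 8D organoids, namely Lilrb4a, Lyz2, Csf1r, Cd14 and Fcer1g, and none was lower, while at 14D only Lilrb4a passed the test. Lilrb4a was 4.0, 4.30 and 5.60 on the 8D arrays, 5.53, 9.28 and 9.87 at 14D, and 7.90, 10.46 and 8.95 at 21D. The 14D group was split, with replicate 1 inside the 8D range and the other arrays near the ESC level, whereas every 21D array was above every 8D array. The 14D minus 8D difference was 3.59 ± 0.78 (SE, 12-fold, limma adjusted p = 0.0176). The 21D minus 8D difference was 4.47 ± 0.78 (22.2-fold, adjusted p = 0.000679). These SEs rest on a spread shared by all groups, whereas the 14D arrays had an SD of 2.36. With the compared groups fitted alone, the 14D call was lost (limma adjusted p = 0.206). The 8D values of 4.0 and 4.30 lay below the background gauge, so both fold ratios are taken over dim signal. Calls at 14D were rare over all genes, at 2.07%, with 1.63% higher and 0.442% lower, and at 21D they reached 11.5%, with 5.95% higher and 5.54% lower. The median difference over the 10 members was 0.97 at 14D and 1.13 at 21D, against -0.04 over all genes at either time. Both comparisons share the 8D arrays, and all organoid arrays are of batch 2.

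Lyz2 was 4.92, 4.71 and 4.43 at 8D, 3.77, 5.96 and 5.73 at 14D, and 5.59, 6.70 and 7.10 at 21D. Its 21D minus 8D difference was 1.78 ± 0.45 (3.42-fold, limma adjusted p = 0.0108). The 21D arrays lay above all 8D arrays, while the 14D arrays lay on both sides of them. Fcer1g, the adaptor of Fc receptors, was 5.58, 5.84 and 5.24 at 8D, 5.61, 7.39 and 8.33 at 14D, and 6.31, 8.91 and 6.71 at 21D, with a difference of 1.75 ± 0.51 at 21D (adjusted p = 0.0262). Csf1r was 5.35, 5.34 and 4.92 at 8D, 5.46, 6.40 and 7.21 at 14D, and 5.90, 7.36 and 5.96 at 21D, with a difference of 1.20 ± 0.32 (adjusted p = 0.0167). In both genes the 21D arrays cleared the 8D range, and 1 array, replicate 2, stood far above the other two. Cd14 was 4.46, 5.04 and 4.72 at 8D, 4.92, 6.71 and 6.49 at 14D, and 5.51, 7.19 and 6.30 at 21D, with a difference of 1.59 ± 0.40 (adjusted p = 0.0104).

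The other members did not pass the test in the organoids. Ptprc ran 3.30, 3.32 and 3.56 at 8D, 3.24, 4.94 and 5.42 at 14D, and 3.80, 5.65 and 3.89 at 21D. Cx3cr1 ran 5.90, 6.29 and 5.93, then 5.94, 6.83 and 7.76, then 6.21, 7.75 and 6.43. In both genes the high arrays were replicates 2 and 3 at 14D and replicate 2 at 21D. Tyrobp moved less, from 5.19 to 5.43 at 8D, 4.92 to 5.97 at 14D and 4.97 to 5.74 at 21D, and Aif1 stayed between 4.22 and 5.07 on all 9 organoid arrays. Cd68 was high from the start, at 8.15, 8.21 and 8.50 at 14D and 7.99, 8.84 and 8.05 at 21D, so its 14D and 21D arrays overlapped those at 8D.

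**Figure D3:**
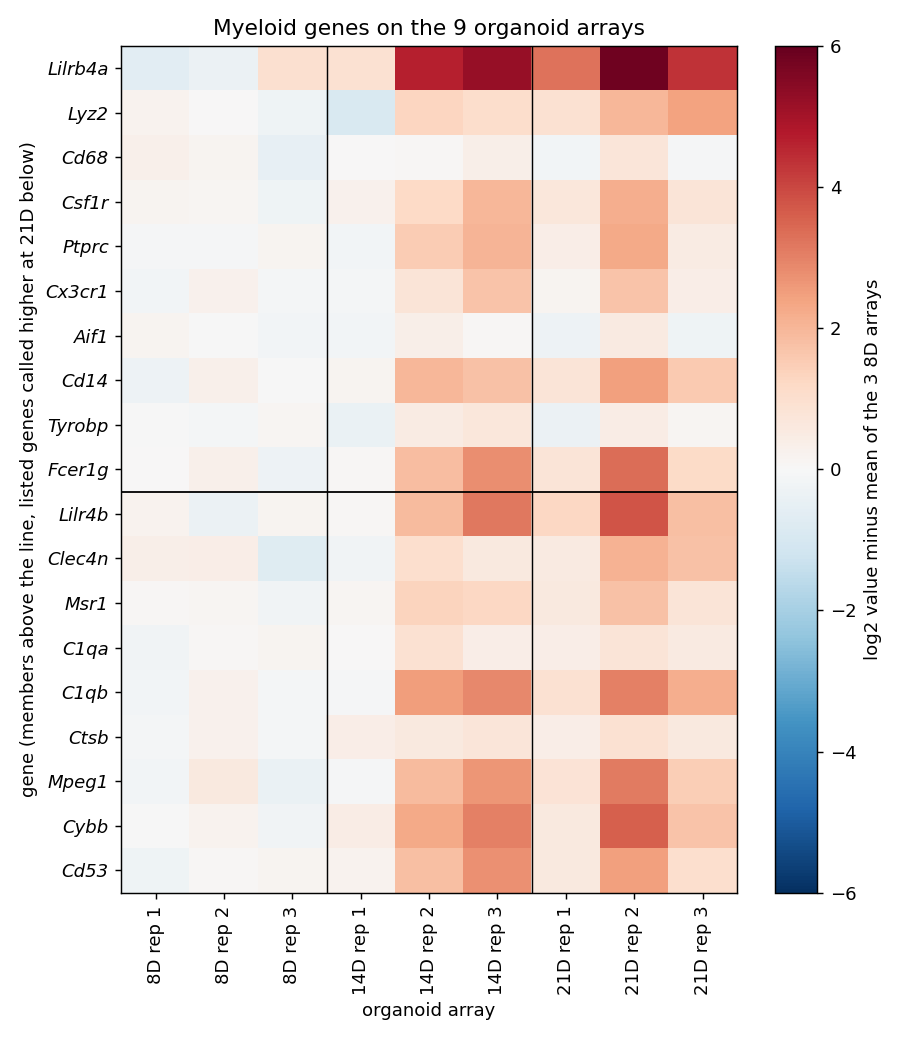
Colour map of the log2 RMA signal minus the gene's mean over the 3 8D arrays (colour scale) for the 10 members and, below the line, 9 other listed myeloid genes called higher at 21D (rows) on each of the 9 organoid arrays (columns). Most rows are pale at 14D replicate 1 and darkest at 21D replicate 2 or 14D replicate 3, and the Lilrb4a row is the darkest, with 7.90 to 10.46 at 21D against 4.0 to 5.60 at 8D.

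The spread within the 14D and 21D groups was shared by most members. Over the 6 later arrays, 14D replicate 1 was the lowest for 8 of the 10 members and 21D replicate 2 was the highest for 7, where over all genes these shares were 16.6% and 16.9%. Over the 9 organoid arrays, Pearson's r between members had a median of 0.722 over the 45 pairs, from 0.316 to 0.990, as a description of arrays that share their day of culture. The 6 genes Lilrb4a, Csf1r, Ptprc, Cx3cr1, Cd14 and Fcer1g, picked after their values were seen, had a median r of 0.935. The mean over the 10 members was 5.19, 6.64 and 6.99 at 14D and 5.84, 7.37 and 6.31 at 21D. The pluripotency list ran in the opposite order on these 6 arrays, at 8.90, 8.07 and 7.31 at 14D and 8.52, 7.08 and 8.14 at 21D. At 8D that list was 9.37, 9.44 and 8.16, and the member mean was 5.19, 5.29 and 5.19. Fibroblast markers were 8.84, 9.54 and 9.41 at 14D and 8.80, 9.49 and 9.45 at 21D, and endothelial markers 7.34, 7.82 and 7.91 at 14D and 6.84, 7.86 and 7.54 at 21D, lowest on the same replicate 1 arrays. The part of the pluripotency, fibroblast and endothelial markers in the member values was not tested. Neutrophil markers stayed between 4.20 and 4.52, T cell markers between 4.74 and 5.18, and B cell markers between 4.58 and 4.85 over all 9 organoid arrays.

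Among the 98 role-list genes, 8 were called higher and 1 lower at 21D than at 8D, with a median of 0.15 against -0.04 over all genes, beside 5.95% of all genes higher and 5.54% lower, and 0 were called at 14D. With the compared groups fitted alone, 0 of them were called at 21D. The complement gene C1qb, at 5.48, 5.90 and 5.52 at 8D and 6.53, 8.67 and 7.84 at 21D, differed by 2.04. Cybb, the oxidase subunit, was 4.41, 4.65 and 4.24 at 8D and 5.0, 8.04 and 6.14 at 21D, a difference of 1.96. Mpeg1 (1.81), the lectin Clec4n (1.46), the tetraspanin Cd53 (1.35), Msr1 (1.06), the protease Ctsb (0.62) and C1qa (0.57) completed the higher set, and the phospholipase Plcg2 was lower by 0.93. At 14D, C1qb was 5.57, 8.14 and 8.51, repeating the split seen in Lilrb4a. Lilr4b, the close neighbour of Lilrb4a, was 3.25, 2.71 and 3.21 at 8D and 4.29, 6.84 and 4.85 at 21D, and whether their probes share targets was not tested.

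These organoid calls rested on few arrays. At 14D, Lilrb4a lost its call without 8D replicate 1 (limma adjusted p = 0.138), 14D replicate 2 (0.0778) or 14D replicate 3 (0.126), whereas without 14D replicate 1 the differences of Csf1r (1.60), Ptprc (1.78), Cx3cr1 (1.25), Cd14 (1.86) and Fcer1g (2.31) also passed. At 21D only Lilrb4a was called in every alternative run: Lyz2 (0.0528), Csf1r (0.164), Cd14 (0.0958) and Fcer1g (0.244) lost their calls without 21D replicate 2, Cd14 (0.0631) and Fcer1g (0.0839) without 8D replicate 1, Csf1r (0.0639) and Fcer1g (0.0792) without 8D replicate 3, and Lyz2 (0.0577) without 21D replicate 3, while Ptprc (0.0497) gained one without 21D replicate 1. The role-list count at 21D fell from 9 to 1 without 21D replicate 2 or without 8D replicate 1, to 5 without 8D replicate 3, and rose to 14 without 21D replicate 1, and at 14D it rose from 0 to 9 without 14D replicate 1.

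Embryonic kidneys carried more Csf1r, Ptprc and Fcer1g signal than either the renal progenitors or the 8D organoids. The 3 E12.5 and 3 E13.5 arrays stayed separate groups in the fit, and comparisons with embryonic kidneys weighted both stages equally. Lowest, median and highest embryonic values are taken over the arrays of both stages. Between the stages, limma called 0 of 10 members and 0.00% of all genes, and 0 members had an unadjusted p under 0.05. With 3 arrays a stage, this does not show that the stages are alike. Csf1r was 5.39, 5.13 and 5.09 in progenitors, and its lowest, median and highest values were 6.22, 6.38 and 6.76 in the embryonic kidneys. Fcer1g was 5.23, 5.29 and 5.51 in progenitors and 6.91, 7.07 and 7.60 in embryonic kidneys by the same measures. No progenitor or 8D array reached the embryonic range of either gene. Csf1r differed by -1.26 ± 0.28 (limma adjusted p = 0.00118), Fcer1g by -1.83 ± 0.45 (0.00228) and Ptprc by -1.09 ± 0.35 (0.0184) in progenitors, so 3 of 10 members were lower, where 34.2% of all genes were called, 14.2% higher and 20.0% lower. Ptprc lost its call without progenitor replicate 1 (0.118) and with batch 2 arrays alone (0.168). All its values in progenitors, 8D organoids and embryonic kidneys lay below 4.99, the lowest 95th percentile of the receptor genes used to judge dim signal. Lilrb4a, on arrays that do not overlap, differed by -1.70 ± 0.68 and missed the threshold (adjusted p = 0.0566), but was called by limma with no batch term (0.0474), after a filter on dim genes (0.0453) and with the compared groups fitted alone (9.72e-05).

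In 8D organoids the same 3 genes were lower than in embryonic kidneys, Csf1r by 1.22 (limma adjusted p = 0.0029), Ptprc by 1.27 (0.0107) and Fcer1g by 1.60 (0.011), and Cd68 was higher by 0.77 (0.0138). Those 4 of 10 calls stand beside 21.2% of all genes called, and the comparison shares its embryonic arrays with that of the progenitors. Cd68 ran from 7.07 to 7.72 in embryonic kidneys, overlapping 1 of the 8D arrays. Only Csf1r kept its call in every alternative: Cd68 lost it without 8D replicate 1 (0.111) or 2 (0.0806), Ptprc without 8D replicate 1 (0.0502) and Fcer1g without 8D replicate 3 (0.0517), where Lilrb4a gained one (0.0406). Lilrb4a differed by -1.79 ± 0.68 (adjusted p = 0.0648), and was also called after that filter (0.0491) and, together with Cx3cr1 (0.0189), with the compared groups fitted alone (0.00524).

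Of the 98 role-list genes, 17 were higher and 18 lower in progenitors than in embryonic kidneys, beside 14.2% and 20.0% of all genes. The lower genes included C1qb by 1.99 (limma adjusted p = 0.00122), Lyve1, a hyaluronan receptor of lymphatic vessels and of some tissue macrophages, by 1.59, the leukocyte actin bundler Lcp1 by 1.41, the lysosomal protein Laptm5 by 1.15, and Syk by 0.89. The higher genes included Csf1 by 2.52 (adjusted p = 1.2e-09), Cx3cl1, the ligand of Cx3cr1, by 2.15, Ly96 by 1.75 and the general lysosomal genes Ctsl by 1.23 and Lamp2 by 1.16. Within the lysosome list, Ctss, which is largely a protease of antigen-presenting cells, ran the other way at -1.46. In 8D organoids 12 of the 98 role-list genes were higher and 14 lower than in embryonic kidneys, beside 9.11% and 12% of all genes. C1qb at -1.70, Mpeg1 at -1.76 and Ctss at -1.42 were among the lower genes and Ctsl at 1.21 among the higher. Red cell markers averaged 7.94 to 9.19 in embryonic kidneys against 4.47 to 4.88 in progenitors, and endothelial markers 8.40 to 8.71 against 6.32 to 7.14, and the part of blood and vessels in the member values was not tested.

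In the adult kidney Csf1r, Ptprc, Lyz2 and Cd14 were higher than in the embryonic kidneys and Cd68 was lower. Csf1r was 8.61, 8.80 and 9.20 in adult kidneys, against a highest embryonic value of 6.76, a difference of 2.45 ± 0.28 (limma adjusted p = 5.93e-08). Ptprc was 6.04, 6.04 and 6.13 against a highest embryonic value of 4.84, a difference of 1.41 ± 0.35 (0.00163). Both were higher in adult kidneys than on any array of the other 9 groups. Lyz2 was 6.68, 6.27 and 7.33, with embryonic values from 4.63 to 5.74, a difference of 1.65 ± 0.39 (0.000928). Cd14 was 6.79, 6.74 and 6.34, with embryonic values from 4.72 to 5.11, a difference of 1.64 ± 0.35 (0.000294). Cd68 went the other way, at 6.88, 6.53 and 6.69 against 7.07 to 7.72, a difference of -0.66 ± 0.22 (0.0155), and the adult arrays were the lowest of all 30 for this gene.

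These 5 of 10 calls stand beside 49.7% of all genes called in the same comparison, 24.3% higher and 25.4% lower. Lilrb4a was 8.25, 7.14 and 7.80 in adult kidneys and 6.01 to 6.73 in embryonic kidneys, which do not overlap, but its difference of 1.31 ± 0.68 did not pass the test (adjusted p = 0.118), except with the compared groups fitted alone (0.000298). Fcer1g, at 7.36, 7.06 and 7.30, overlapped the embryonic range. Cx3cr1 was 7.05, 7.32 and 7.06 against 6.42 to 6.86. It also did not pass, except in that fit (0.0024) and with the replicate number as a block (0.0444). The Cd68 call was lost without adult replicate 2 (limma adjusted p = 0.0735) and after quantile normalization (0.0991).

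Genes acting with the members rose broadly in the adult kidney, with 49 of 98 higher and 6 lower. Over all genes 24.3% were higher and 25.4% lower. The median of the role-list genes was 0.41, against 0.08 over all genes. The lysosome list was higher for 9 of 11 genes, including Lgmn at 2.81 and Lipa at 2.33, enzymes that kidney tubules also use. Antigen presentation was higher for 4 of 8, with the class II chains H2-Ab1 at 2.29 and H2-Aa at 1.49. Macrophage surface genes were higher for 8 of 18 and lower for 2, with Ly6c2 at 3.42, Fcgr2b at 2.61 and Lyve1 at -1.72. Ly6c2 marks circulating monocytes and is also carried by endothelium. The C1q list was called for 0 of 3, and C1qb differed by -0.03. Il34, the tubule-derived ligand of Csf1r, was 7.67, 7.47 and 7.89 in adult kidneys and rose by 2.71 (limma adjusted p = 3.44e-13), while Csf1 was lower by 0.64 (0.00895), a call lost without adult replicate 2 (0.0556). Other leukocyte markers moved as well: T cell genes were higher for 6 of 10 (Cd3e by 1.27) and B cell genes for 5 of 7, with list means of 5.20 to 5.66 and 4.99 to 5.09 against 4.88 to 5.06 and 4.60 to 4.70 in embryonic kidneys. Their part in the Ptprc value was not tested.

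**Figure D4:**
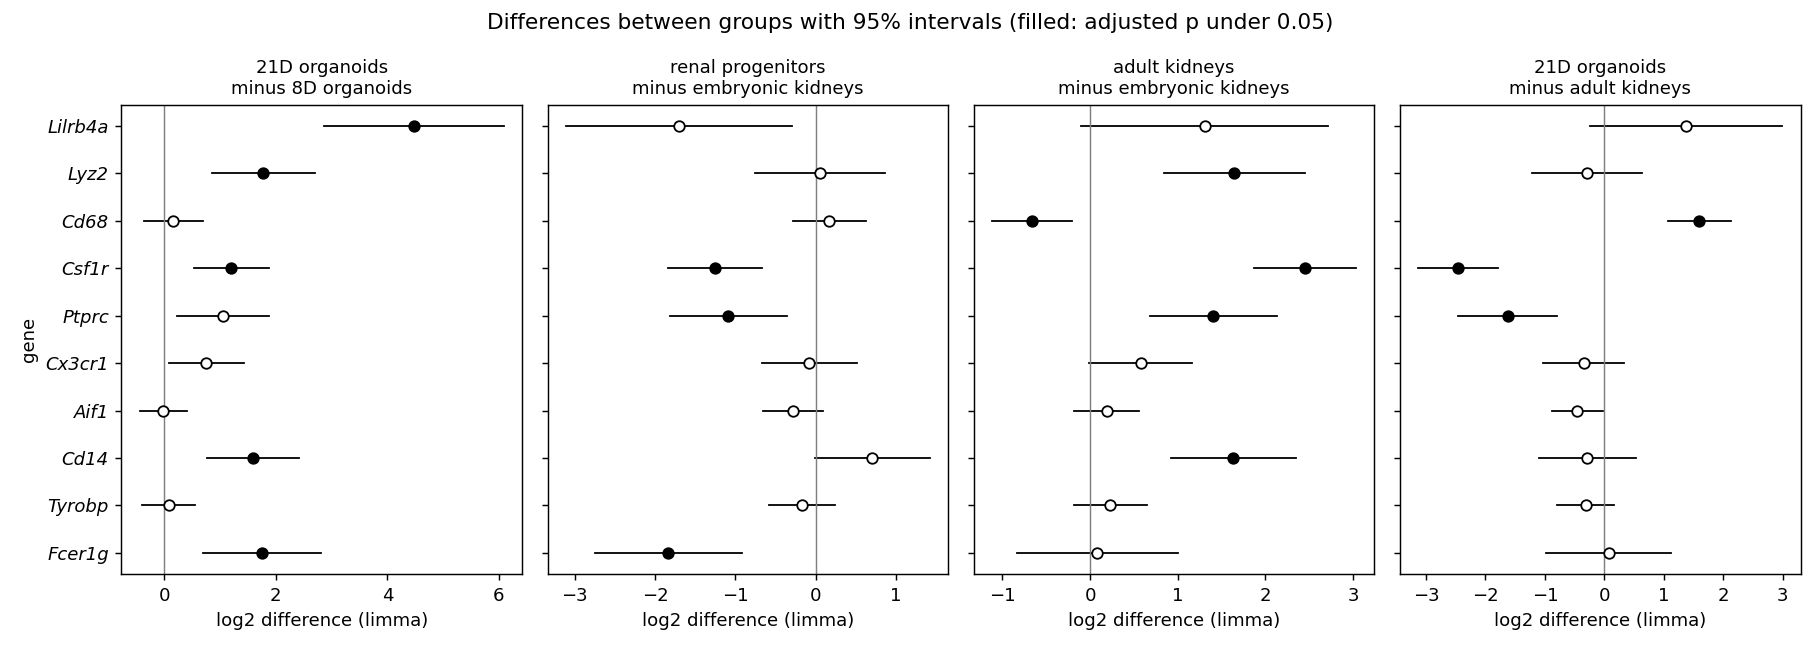
Difference in log2 RMA signal (x axis) with its 95% confidence interval for the 10 members (y axis) in 4 of the tested comparisons, 1 panel each, with filled points for calls at an adjusted p under 0.05. Lilrb4a has the greatest 21D minus 8D difference of the members, at 4.47, and Csf1r stands at 2.45 in adult minus embryonic kidneys and at -2.46 in 21D organoids minus adult kidneys.

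Set against adult kidneys, 21D organoids were lower in Csf1r and Ptprc and higher in Cd68. Csf1r differed by -2.46 ± 0.32 (limma adjusted p = 6.61e-07), Ptprc by -1.63 ± 0.40 (0.00162) and Cd68 by 1.60 ± 0.25 (1.01e-05), on arrays that do not overlap for any of the 3 genes. These 3 of 10 members compare with 48.4% of all genes called (24.4% higher and 24.0% lower), and the adult arrays are those of the previous comparison. Lilrb4a, Lyz2, Cd14 and Fcer1g did not pass the test, and their 21D arrays overlapped or enclosed the adult values. For Lilrb4a, the 21D mean was 9.11 ± 1.29 and the adult mean 7.73 ± 0.56 (SD, n = 3 each). Without 21D replicate 2, Cx3cr1 (-0.83, adjusted p = 0.0272) and Aif1 (-0.73, 0.00405) were also called lower in the organoids, and Aif1 also without adult replicate 2 (0.0201).

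Called genes of the surrounding lists were mostly lower in 21D organoids than in adult kidneys, with 42 of 98 role-list genes lower and 4 higher. Over all genes 24.0% were lower and 24.4% higher. The role-list median was -0.37, against -0.07 over all genes. The oxidase subunit Cyba was lower by 3.21, Il34 by 2.88, H2-Aa by 2.21, the liver X receptor gene Nr1h3 by 2.06 and the engulfment receptor Mertk by 1.98. The higher genes included Csf1 by 1.79 (limma adjusted p = 3.55e-07) and the transcription factor Runx1 by 1.87. The C1q list was called for 0 of 3, with C1qb at 0.37. Fibroblast markers were higher in the organoids for 9 of 10 genes, with list means of 8.80 to 9.49 against 5.41 to 5.72 in adult kidneys.

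The order of the groups differed between members. Lilrb4a ran from ESC cultures (9.23) over 21D organoids (9.11), 14D organoids (8.22) and adult kidneys (7.73) to E12.5 (6.57) and E13.5 kidneys (6.26), then renal progenitors (4.71), 8D organoids (4.64), mesoderm (4.27) and intermediate mesoderm (4.16). Of its 9 neighbouring pairs, 7 overlapped in their arrays, and the breaks lay between adult and E12.5 kidneys and between E13.5 kidneys and progenitors. Csf1r ran from adult kidneys (8.87) to a cluster of E13.5 (6.45), E12.5 (6.43), 21D (6.41) and 14D (6.35), and ESC cultures followed at 5.67. Group means of Lilrb4a spanned 5.07 log2 units, those of Csf1r 3.67, Lyz2 3.58, Cd68 2.98, Ptprc 2.68, Fcer1g 1.97, Cd14 1.88 and Cx3cr1 1.16, whereas Tyrobp spanned 0.55 and Aif1 0.46. For Aif1, Tyrobp and Cd14 all 9 neighbouring pairs overlapped.

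The genes whose 10 group means followed a member most closely were sought for Lilrb4a, Lyz2 and Csf1r, as a description with no test. The search left out the members, predicted genes, microRNAs, small nucleolar RNAs and the olfactory and vomeronasal receptors. Nearest to Lilrb4a by Pearson's r were Lilr4b (0.952), Adgre1 (0.938), the chemokine Ccl9 (0.933), Cd53 (0.922) and C1qa (0.922). Nearest to Lyz2 were the macrophage elastase Mmp12 (0.966), the lectin Clec4d (0.939), the chemokine Ccl6 (0.922), the collagenase Mmp13 (0.921) and Ms4a7 (0.920). Nearest to Csf1r were Fyb (0.990), Tmem33 (0.988), Rdh14 (0.986), Trappc10 (0.982) and Esm1 (0.980). Each of them had its highest mean in adult kidneys, as Csf1r did. Group means of Tmem33 spanned only 7.09 to 7.68, and those of Fyb ran from a dim 3.27 in mesoderm to 5.03 in adult kidneys. Lyz1, whose upstream window resembles that of Lyz2, had group means between 4.52 and 5.04 and so did not follow it.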

How the data were processed

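Total RNA of 30 samples was measured on Affymetrix whole-transcript mouse arrays (Mouse Gene 2.0 ST). The authors normalized the arrays with RMA and fitted limma, per the labels and the study's methods, and deposited log2 values per gene symbol, 1 column a sample. RMA fits probe effects over all arrays, so values are relative and levels of different genes are not comparable. The 10 members and the role and cell type lists were chosen with earlier results of these data known. Here limma 3.58.1 (R 4.3.3) was fitted to all 23986 genes and 30 arrays, with 10 group coefficients and a batch term (19 residual degrees of freedom), for 10 comparisons that use no ESC array, with Benjamini-Hochberg adjustment over all genes in each and calls at 0.05. The fit was tested on simulated data. Of the 190 listed other genes, 183 were measured, and the text names up to 4 called genes per list and comparison with the highest absolute difference. Of all symbols, 23143 matched the RefSeq gene table. The depth of an array is not a read count, and precision is limited by 3 arrays a group. What the 2 batches mark was not given in the sources used here. Results for some genes of the lists are not reported here.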

Additional observations from a re-analysis of the deposited data

How the results depend on the processing

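Every member kept its direction wherever it was called. Leaving out 1 array at a time lost 18 of 162 calls, counted over all such fits, and added 14. Counts of called members ran from 0 to 6 at 14D against 8D (1 as reported), 1 to 6 at 21D against 8D (5), 3 to 5 for 21D organoids against adult kidneys (3), 2 to 4 for 8D organoids against embryonic kidneys (4), 2 to 3 for progenitors against embryonic kidneys (3), 4 to 5 for adult against embryonic kidneys (5), 0 to 1 for progenitors against intermediate mesoderm (0) and for 8D organoids against progenitors (0), and 0 to 0 for intermediate mesoderm against mesoderm and for E13.5 against E12.5. The ESC minus mesoderm median over the members ran from 0.64 to 0.99 (0.80). With the compared groups fitted alone, the counts were 0 at 14D (Lilrb4a, limma adjusted p = 0.206), 2 at 21D (Lilrb4a and Lyz2), 5 for progenitors (adding Lilrb4a and Cd14), and 6 for 8D organoids and 7 for adult kidneys (adding Lilrb4a and Cx3cr1 to both), each against embryonic kidneys. Progenitors against intermediate mesoderm gave 1, Cd68, with batch 2 alone, with no batch term, after a filter on dim genes and with a trended and robust prior, and 8D organoids against progenitors gave 1, Cd68, with batch 2 alone. At 14D the dim filter gave 2, adding Csf1r (0.045). Over 135 same-numbered pairs of arrays from different groups, the correlation of deviations had a median of 0.009, and 19 pairs were over 0.1. The correlations ran from -0.320 to 0.524. Pairs of cultures with kidneys are among them, so the median cannot tell whether culture stages or organoid days shared a run. With the replicate number as a block the 14D count was 2, adding Csf1r (1.15, adjusted p = 0.0456), Lilrb4a was added for progenitors (0.0233) and Cx3cr1 for adult kidneys (0.0444) against embryonic kidneys, and no call was lost. Signal over background limits Ptprc and Aif1, which fall to the dim filter.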

Other observations

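Cpa3, the mast cell carboxypeptidase, was 5.15, 4.89 and 4.48 in E12.5 kidneys and 5.75, 5.65 and 4.99 in E13.5 kidneys, and lay between 3.14 and 3.75 on the arrays of every other group. It was lower in adult than in embryonic kidneys by 1.78 (limma adjusted p = 1.76e-09). Mcpt8, a protease of basophils, was 4.87, 6.54 and 6.70 in ESC cultures, with replicate 1 low as it was for Lilrb4a. Over all groups, Csf1 had its highest mean in ESC cultures, at 9.87, and its lowest in adult kidneys, at 6.37, where Il34 had its highest at 7.68, against 4.79 to 5.16 in the other 9 groups.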
